A study of Mus musculus with 8 samples.

Results

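The 10 genes described here make, carry and destroy retinoic acid: Rdh10, Dhrs3, Aldh1a1, Aldh1a2, Aldh1a3, Cyp26a1, Cyp26b1, Cyp26c1, Crabp1 and Crabp2. They were taken by name, as 10 of the 21900 protein-coding genes of the GRCm38 RefSeq annotation, and the summits of ZGLP1 peaks inside each gene and near its ends were read from a list of 32927 summits. ZGLP1 is a nuclear protein whose zinc fingers resemble those of GATA factors. The cells carried V5-tagged Zglp1 that doxycycline (Dox) switches on, on a mixed C57BL/6 x DBA2 background, and chromatin was pulled down with a rabbit polyclonal antibody against V5. Primordial germ cell-like cells (PGCLCs), derived in vitro from embryonic stem cells (ESCs), expanded on feeder cells and sorted for the SC and mCherry reporters, were collected on expansion culture day 7 or 8 after Dox without or with added retinoic acid (RA), given from day 3. ESCs sorted for mCherry were collected after 24 h of Dox and RA. PGCLCs gave 4 ChIP libraries and ESCs gave 1, with 1 library a group and 3 input libraries beside them, and all of these cells had received Dox. The list names no library and gives no height, so levels with and without added RA, days and cell types cannot be compared, and depth is unknown. A place without a summit may lie below the authors' threshold, and every value here is a position with no replicate and no test.

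Cells make RA from retinol in a pair of steps. RDH10 oxidises retinol to retinaldehyde, DHRS3 reduces retinaldehyde back to retinol, and the ALDH1A enzymes oxidise retinaldehyde to RA. CYP26 enzymes hydroxylate RA for clearance, and the small proteins CRABP1 and CRABP2 bind it in the cytoplasm. RA enters the nucleus and acts through RAR and RXR receptors on response elements, of which one well-known kind is a direct repeat of a hexamer with 5 bases between the copies (DR5). In the fetal gonad RA is known for its part in the entry of female germ cells into meiosis, and CYP26B1 for keeping RA low in the fetal testis.

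Summits lay within 10 kb of an end of 9 of the 10 genes, and Aldh1a1 was the exception. Of all protein-coding genes, 66.6% had one by the same rule. Within 50 kb the count was again 9 of 10, against 78.0% of all genes. Within 1 kb it was 6 of 10, against 52.9%, and with a summit inside the gene it was 5 of 10, against 54.5%, so these last 2 shares were close to the background. The median member had 2 summits within 10 kb and the median protein-coding gene had 1. The closest summit lay a median of 357.5 bases from an end in the members and 657.5 bases in all genes.

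Within 10 kb of the 10 genes lay 24 separate summits. Of these, 21 had a member as the nearest protein-coding gene end, and 3 were nearer to another gene. Cyp26a1 and Cyp26c1, which are neighbours, shared 6 of the 24. Per gene the counts ran from 0 at Aldh1a1 through 1 at Cyp26b1, Crabp1 and Crabp2, 2 at Rdh10 and Aldh1a2 and 3 at Aldh1a3 to 6 at Cyp26a1 and 7 each at Dhrs3 and Cyp26c1. The map of the 10 genes shows these summits on either side of each gene.

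**Figure D1:**
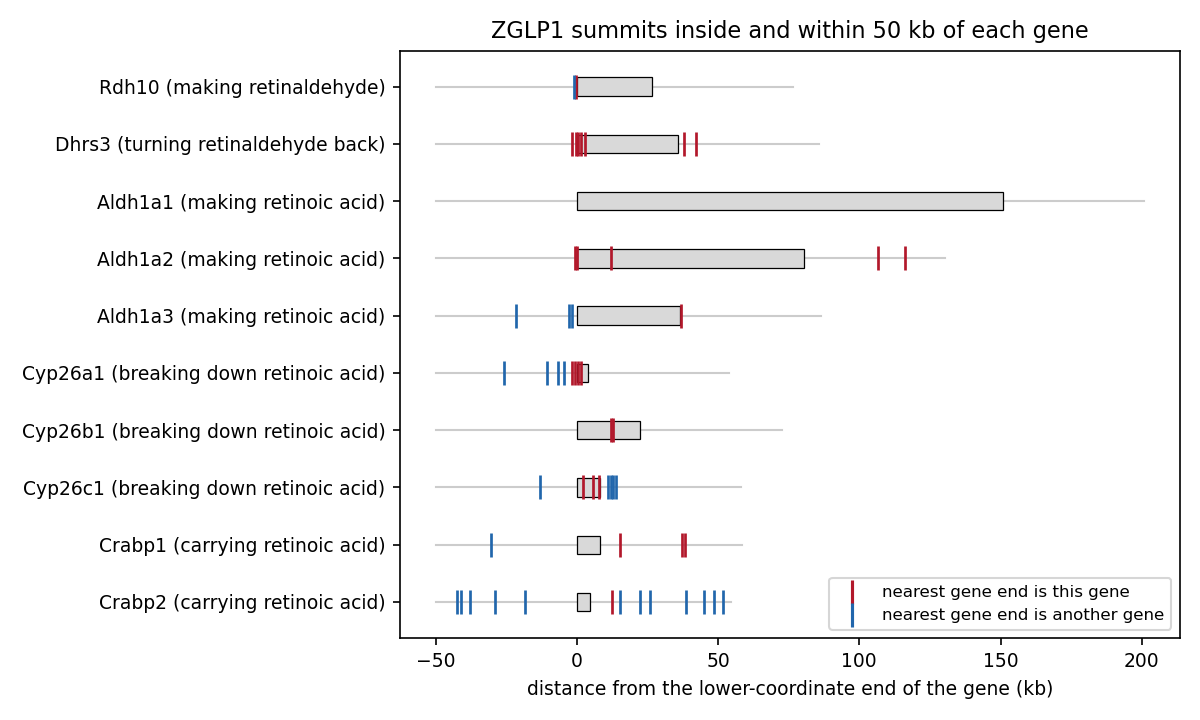
Summits (ticks) inside and within 50 kb of each gene, by distance in kb from its lower-coordinate end, with the gene as a grey box. Red ticks have the gene as the nearest protein-coding gene end and blue ticks another gene. Aldh1a1 has no tick, Dhrs3 has 5 red ticks around its lower end and 2 past its upper end, and Crabp2 has 1 red tick among 13.

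High counts were held by few genes. Only 4.12% of protein-coding genes had 6 or more summits within 10 kb, the number of Cyp26a1, and 2.14% had 7 or more, the number of Dhrs3 and Cyp26c1. The other 7 members had 0 to 3, and 25.8% of all genes had 3 or more. Of the 53 other retinoid genes described below, some had counts as high: 8 at Cdx1, 7 at Rxrb and 6 each at Rdh5 and Meis2. When each summit was given only to the nearest gene end, Dhrs3 kept 7, Cyp26a1 had 4, Cyp26c1 had 3, Aldh1a2 had 2, and Rdh10, Aldh1a3, Cyp26b1, Crabp1 and Crabp2 had 1 each. Over the gene with 10 kb on both sides, Cyp26a1 had 2.52 summits per 10 kb and Cyp26c1 had 2.48, densities reached by 1.19% and 1.26% of protein-coding genes. Dhrs3 had 1.26 per 10 kb, reached by 9.21%.

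**Figure D2:**
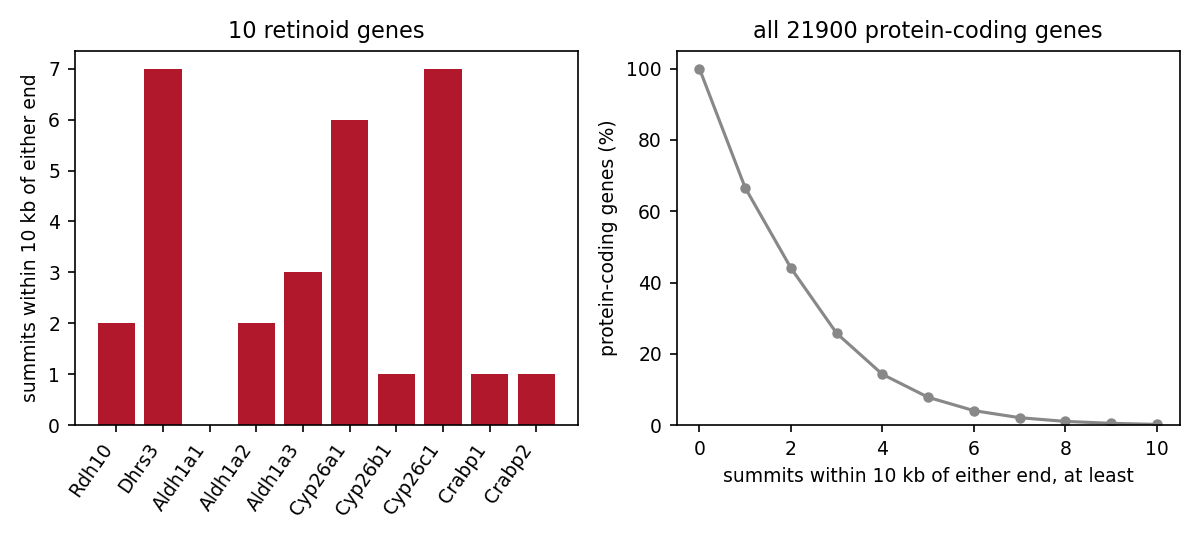
Left, number of summits within 10 kb of either end of each gene (bars). Right, percent of all 21900 protein-coding genes with at least the number of summits on the horizontal axis. The bars of Dhrs3 and Cyp26c1 stand at 7, a number that 2.14% of genes reach.

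Rdh10, which encodes the dehydrogenase of the first step, spans chromosome 1, 16105882 to 16132550. It had no summit inside. Its 2 summits lay at 16105728 and 16104725, that is 154 and 1157 bases below its lower end. Both fell in the 1449 bases between Rdh10 and Rpl7, a ribosomal protein gene, and the second was nearer to Rpl7, at 292 bases. Above the gene the next summit lay 118 kb away.

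Dhrs3, whose product turns retinaldehyde back into retinol, spans chromosome 4, 144892534 to 144928209, and lies whole within the annotated span of Vps13d. All 7 of its summits had Dhrs3 as the nearest gene end. Upstream of the gene they lay at 144890866 and 144892122, inside it at 144892977, 144893875 and 144895472, and downstream at 144930474 and 144934767. The first 5 ran over 4.61 kb with gaps of 855 to 1597 bases. As many summits in as short a stretch began at 0.644% of all summits in the list. The length was set by these same summits, so this share only describes them. The RefSeq promoter table gives Dhrs3 3 starts on the plus strand, at 144892827, 144893077 and 144893137. The summit at 144892977 lay between them, 150 bases after the first and 100 before the second. That table has no promoter window (250 bases before to 50 after a start) for Rdh10, Aldh1a3 and Crabp2. In the windows of the other 7 members, the summit at 144892977 was the only one. Such a window is shown because it holds the summit; of all 32851 windows in the table, 18.8% hold one. It covers chr4:144892827-144893126 (GRCm38.p6, plus strand), and capitals mark the summit with 10 bases on either side.
Dhrs3: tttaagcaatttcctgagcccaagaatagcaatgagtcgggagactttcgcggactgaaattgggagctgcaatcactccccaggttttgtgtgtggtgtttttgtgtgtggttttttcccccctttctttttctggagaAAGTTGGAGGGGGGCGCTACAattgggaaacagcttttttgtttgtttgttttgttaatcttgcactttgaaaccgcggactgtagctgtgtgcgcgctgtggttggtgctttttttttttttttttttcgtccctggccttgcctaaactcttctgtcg
The summit is base 151 of this run. The run had 10 CpG pairs and 45.0% GC, below the medians of 24 pairs and 63.2% GC over the 6168 windows with a summit inside. The window of the first Dhrs3 start, with no summit in it, had 21 pairs and 58.7% GC. That of the last start had 9 pairs and 45.3% GC.

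The 3 Aldh1a genes, whose enzymes carry out the last step, had closest summits 67, 250 and 423275 bases from an end. Aldh1a2, the main RA-making enzyme of the early embryo, spans chromosome 9, 71215789 to 71296243, and had summits on both sides of its start. One lay 67 bases after the start, at 71215856, and the other 490 bases before it, at 71215299. Another lay inside the gene at 71227749, 11960 bases from the start, and a pair 26105 and 35606 bases beyond the far end, at 71322348 and 71331849. All 5 had Aldh1a2 as the nearest protein-coding gene end. The upstream summit fell within Gm3458, a noncoding RNA gene on the opposite strand whose upper-coordinate end lies 403 bases below Aldh1a2. That summit also fell within a promoter window of Gm3458, 58 bases before one of its starts.

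The window of the Aldh1a2 start and the Gm3458 window that holds the upstream summit are shown. The first covers chr9:71215539-71215838 (plus strand), with the letters CCAAT in capitals, and the second chr9:71215192-71215491 (minus strand), with the summit and 10 bases on either side in capitals; both are GRCm38.p6.
Aldh1a2: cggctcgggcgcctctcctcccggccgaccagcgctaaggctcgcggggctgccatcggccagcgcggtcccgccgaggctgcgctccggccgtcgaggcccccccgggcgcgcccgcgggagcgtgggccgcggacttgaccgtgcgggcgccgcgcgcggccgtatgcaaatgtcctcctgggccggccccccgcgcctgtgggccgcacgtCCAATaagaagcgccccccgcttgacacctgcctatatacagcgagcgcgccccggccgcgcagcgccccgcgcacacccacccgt
Gm3458: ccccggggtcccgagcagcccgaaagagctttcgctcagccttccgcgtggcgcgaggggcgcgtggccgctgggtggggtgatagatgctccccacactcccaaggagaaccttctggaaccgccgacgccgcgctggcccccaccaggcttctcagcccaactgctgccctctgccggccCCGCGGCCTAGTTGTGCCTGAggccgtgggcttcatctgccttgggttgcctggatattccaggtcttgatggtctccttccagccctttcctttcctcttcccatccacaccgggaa
The Aldh1a2 window held 50 CpG pairs, a number reached by 0.855% of all windows, and was 78.0% GC. The summit at 71215856 lies just past its last base.

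Aldh1a1, which spans chromosome 19, 20492583 to 20643463, and is 151 kb long, had no summit inside or within 50 kb. The closest lay 423275 bases above its upper end and 1.41 Mb below its lower end, at 21066738 and 19078952. This empty stretch of 1.99 Mb also holds Anxa1, Aldh1a7 and Tmc1 whole. Stretches between neighbouring summits were as long in 121 of 32905 cases (0.368%), with a median of 16400 bases. The 0.368% is a share of stretches by number and not of genes or bases. Of the 1447 protein-coding genes at least as long as Aldh1a1, 12.1% had no summit inside or within 50 kb, and of all protein-coding genes 21.7%. Aldh1a1 has 2 annotated starts, at 20492583 and 20601968, and which of them these cells use was not examined. The window of the first, chr19:20492333-20492632 (GRCm38.p6, plus strand), is shown for contrast with that of Aldh1a2. Capitals mark CTATCT, which is AGATAG on the other strand, a GATA hexamer.
Aldh1a1: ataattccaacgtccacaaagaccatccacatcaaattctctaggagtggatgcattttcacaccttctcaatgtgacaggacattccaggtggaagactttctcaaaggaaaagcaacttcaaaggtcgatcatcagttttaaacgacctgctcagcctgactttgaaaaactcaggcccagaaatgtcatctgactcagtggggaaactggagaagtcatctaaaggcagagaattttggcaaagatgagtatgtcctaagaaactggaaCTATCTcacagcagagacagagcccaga
This window had 3 CpG pairs and was 43.3% GC, and its other window had 1 pair and was 47.0% GC. Windows with no summit within 1 kb of the start had medians of 3 pairs and 47.7%.

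Aldh1a3 spans chromosome 7, 66390892 to 66427477, and had no summit inside. One lay at 66427727, 250 bases above its upper end and below the noncoding gene Gm33515. The 2 at 66389361 and 66388133 lay 1531 and 2759 bases below its lower end but nearer to Lrrk1, a kinase gene, at 1020 and 208 bases. Aldh1a2 and Aldh1a3 thus each had a summit within 1 kb of an end, whereas Aldh1a1 had none within 100 kb.

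Cyp26a1 and Cyp26c1 lie 4418 bases apart on chromosome 19, at 37697738 to 37701536 and 37685112 to 37693320. From 37687158 to 37699090, over 11.9 kb, the list had 7 summits. As many within that length, which these summits themselves set, began at 0.686% of all summits. Inside Cyp26c1 lay 37687158, 37690917 and 37693133, the last 187 bases from its far end. Between the genes lay 37696117 and 37697169, and inside Cyp26a1 lay 37698041 and 37699090. The last 4 were 872 to 1052 bases apart. Around the Cyp26a1 start at 37697808 (plus strand) the nearest were 639 bases before it and 233 after it. The Cyp26c1 start at 37685680 had its nearest summit 1478 bases after it and none for 13.7 kb before it. The first 5 of the 7 also fell within Gm32342, a noncoding RNA gene on the minus strand that runs across Cyp26c1. Its upper-coordinate end lies 192 bases below Cyp26a1.

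The Cyp26a1 window is shown because it carries a DR5 element. It covers chr19:37697558-37697857 (GRCm38.p6, plus strand), and capitals mark the 17 bases of the repeat.
Cyp26a1: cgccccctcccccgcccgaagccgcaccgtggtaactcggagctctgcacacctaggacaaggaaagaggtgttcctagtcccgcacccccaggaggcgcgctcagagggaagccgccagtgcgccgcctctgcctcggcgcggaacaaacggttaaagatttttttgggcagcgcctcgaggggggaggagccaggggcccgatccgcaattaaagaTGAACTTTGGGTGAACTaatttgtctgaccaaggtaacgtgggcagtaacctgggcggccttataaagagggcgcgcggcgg
On the other strand the capitals read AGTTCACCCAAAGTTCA. The element ran from 32 to 16 bases before the start, at chr19:37697776-37697792, and had no summit in it. The flanking summits lay 607 bases below it and 249 bases above it. The same bases stand in the promoter window of Gm32342, which faces the other way.

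The repeat was searched on both strands as any 2 of the hexamers AGGTCA or AGTTCA or GGGTCA or GGTTCA in the same direction with 5 bases between them. It was found in 32 of 32851 windows (0.0974%) and in 1 of the 10 windows of the members. Among the other retinoid genes examined, Rarb, the gene of retinoic acid receptor beta, had one. Its bases, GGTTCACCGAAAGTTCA on the strand of the gene, stood 53 to 37 bases before a start, at chr14:16575513-16575529. A summit at 16575533 lay 4 bases from it. Of the 32 windows with a DR5, 7 (21.9%) had a summit within 1 kb of the start, and of all windows 41.0%; those 7 include the windows of Cyp26a1, Gm32342 and Rarb. With 2 bases or 1 base between the hexamers (DR2 and DR1) no member window had a match, and 0.268% and 0.222% of all windows did.

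**Figure D3:**
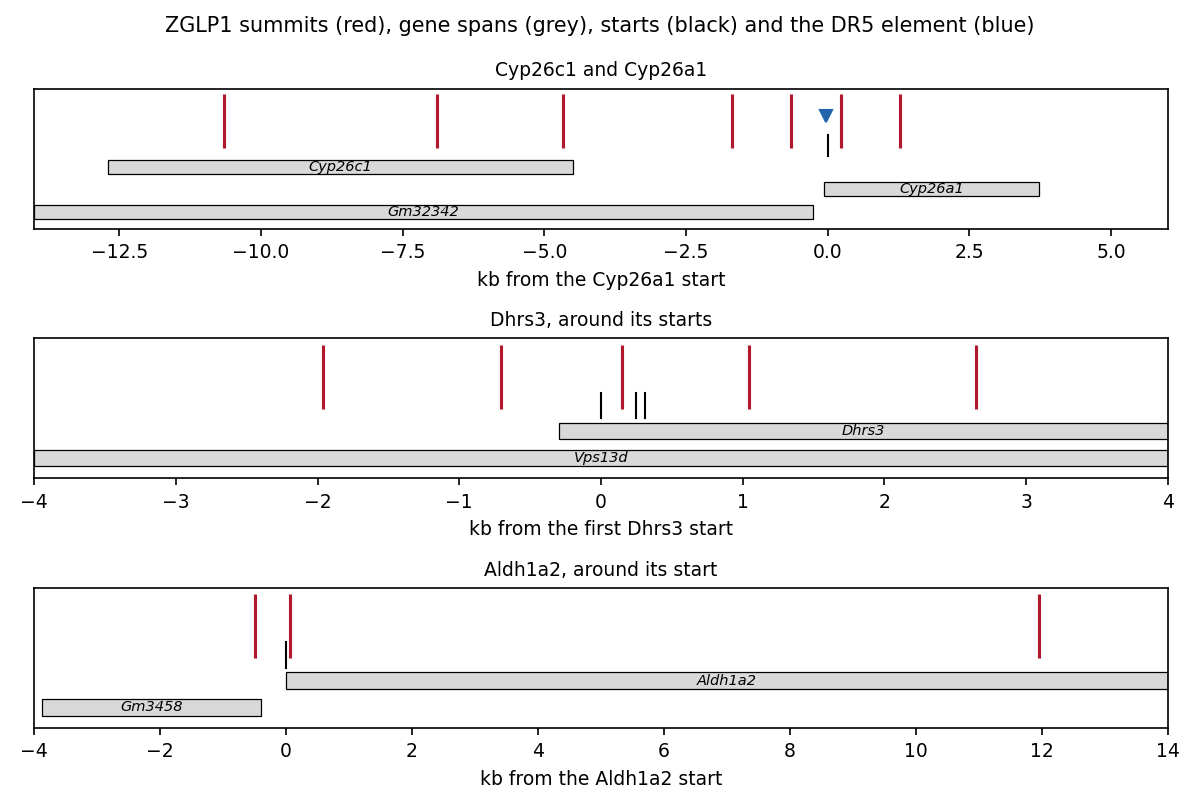
Summits (red lines), gene spans (grey boxes), annotated starts (short black lines) and the DR5 element (blue triangle) around 3 loci, by distance in kb from the Cyp26a1 start, the first Dhrs3 start and the Aldh1a2 start. The triangle lies between the summits 639 bases before and 233 bases after the Cyp26a1 start.

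Cyp26b1, on chromosome 6 from 84571414 to 84593908 (minus strand), differed in position from both other Cyp26 genes. Its 2 summits, 84584398 and 84583569, lay inside the gene, 9412 and 10241 bases after the start at 84593810. No summit lay within 1 kb of either end. The next summit downstream of the gene was 528 kb away, and the next upstream was 80.4 kb away. The first of these empty stretches, 540 kb between summits, was matched or exceeded by 2.68% of all stretches. That is a share of stretches by number. Long stretches cover more bases each, so it is not the share of genes beside one as long. The window of Cyp26b1, chr6:84593761-84594060 (GRCm38.p6, minus strand), is printed beside that of Cyp26a1 as the same region of the gene without a nearby summit, with the letters TATAAA in capitals.
Cyp26b1: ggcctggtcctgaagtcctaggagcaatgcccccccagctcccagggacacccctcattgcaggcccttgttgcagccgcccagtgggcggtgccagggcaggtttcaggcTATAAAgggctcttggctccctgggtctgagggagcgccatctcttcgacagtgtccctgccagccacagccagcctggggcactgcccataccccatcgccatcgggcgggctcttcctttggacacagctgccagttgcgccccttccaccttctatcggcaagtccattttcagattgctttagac
The windows of Cyp26a1 and Cyp26b1 were both 62.3% GC, with 26 and 9 CpG pairs. TATAAA was found in both and in 13.6% of all windows, but at different places. It stood 139 to 134 bases before the start in Cyp26b1 and 29 to 34 bases after the start in Cyp26a1.

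The binding proteins had their closest summits several kb from the gene. Crabp1 (chromosome 9, 54764748 to 54773110) had 1 within 10 kb, at 54779901, 6791 bases downstream of its end, and 2 more near 30 kb downstream, at 54801871 and 54803131. Before its start the nearest was 30.2 kb away, at 54734546, 3 bases from an end of Wdr61. Crabp2 (chromosome 3, 87948693 to 87953372) had 1 within 10 kb, at 87961073, 7701 bases above its upper end and inside the noncoding gene Gm32518. Within 50 kb it had 13, a number reached by 6.25% of genes, but only that 1 had Crabp2 as the nearest gene end. The other 12 were nearer to Hdgf, Mrpl24, Isg20l2, Nes or Bcan. Neither Crabp gene had a summit inside it.

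Starts on their own strand were known from the promoter table for 7 of the 10 genes. Rdh10, Aldh1a3 and Crabp2 had no entry. Of the 7, Dhrs3, Aldh1a2 and Cyp26a1 (3 of 7) had a summit within 1 kb of a start, against 55.7% of the 17492 protein-coding genes in that table. Within 10 kb of a start, 5 of 7 had one, against 63.7%; Crabp1 and Aldh1a1 had none. Counted within 10 kb of an end, the gene-summit pairs of these 7 genes fell upstream 7 times, inside the gene 10 times and downstream 7 times. The 6 summits shared by Cyp26a1 and Cyp26c1 count once for each gene. Of these, the 4 nearest to Cyp26a1 count as upstream of it or inside it, and also as downstream of Cyp26c1.

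Other letters searched in the 10 member windows, on both strands, were as follows. One of the 4 receptor hexamers stood in windows of Cyp26a1 and Aldh1a1 (2 of 10 windows; 43.7% of all windows). The GATA hexamers AGATAA or AGATAG or TGATAA or TGATAG stood in both windows of Aldh1a1 and that of Cyp26c1 (3 of 10; 29.8%), and overlap the plain letters GATA, found in 6 of 10 (57.9%). GGGCGG stood in 3 of 10 (35.7%), CCAAT in 4 of 10 (37.4%) and CACGTG in 0 of 10 (7.15%). The 3 windows with a GATA hexamer, 2 of them of Aldh1a1, had no summit within 1 kb of their start. Of all windows with a GATA hexamer 22.3% had one, and of all windows 41.0%, so 3 windows are too few to read. A match of letters is not a site of binding.

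Of 53 other genes of retinoid use, grouped by role, 36 (67.9%) had a summit within 10 kb, close to the 66.6% of all protein-coding genes. Shares differed by role. Of 12 genes for uptake, transport and storage of retinol, 7 had one and 5 had none. Among the closest were Lrat, the enzyme that stores retinol as esters, at 24 bases, Rlbp1, a gene of the visual cycle, at 40 and Rbp2 at 2465 bases. Farthest were Rbp3 and Rpe65, which also serve the visual cycle, at 116336 and 103700 bases, Rbp4, the carrier of retinol in blood, at 61538, and Ttr, its partner, at 49259 bases.

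Of 20 other dehydrogenases and reductases that act on retinol or retinaldehyde, 10 had a summit within 10 kb. Rdh14, Akr1b3, Rdh11 and Dhrs4 were closest, at 89, 97, 155 and 343 bases. Dhrs9, Rdh1, Rdh9 and Sdr16c5 were farthest, at 174450, 81639, 70451 and 56964 bases.

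Receptors and their partners had a summit within 10 kb of a gene end in 11 of 12 cases, with a median of 3. The exception was Rarb, whose summits lay deeper inside the gene. Ppard, Rxrb, Rxra and Ncoa1 were closest, at 37, 66, 140 and 141 bases. Farthest, measured to gene ends alone, were Rarb at 64811, Rara at 7209 and Rarg at 977 bases. All 3 RAR genes had summits inside, 10 in Rara, 7 in Rarg and 3 in Rarb, whose DR5 start lies within its annotated span. Of 11 genes known to respond to RA, 9 had a summit within 10 kb. Dhrs3 and Cyp26a1 are also known to respond to RA but were counted only as members. Rec8, Meis1, Meis2 and Cdx1 were closest, at 178, 196, 312 and 326 bases. Rarb, which is in both lists, and Tgm2, Stra6 and Stra8 were farthest, at 64811, 14262, 2685 and 1773 bases. Stra8 is needed for the start of meiosis.

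**Figure D4:**
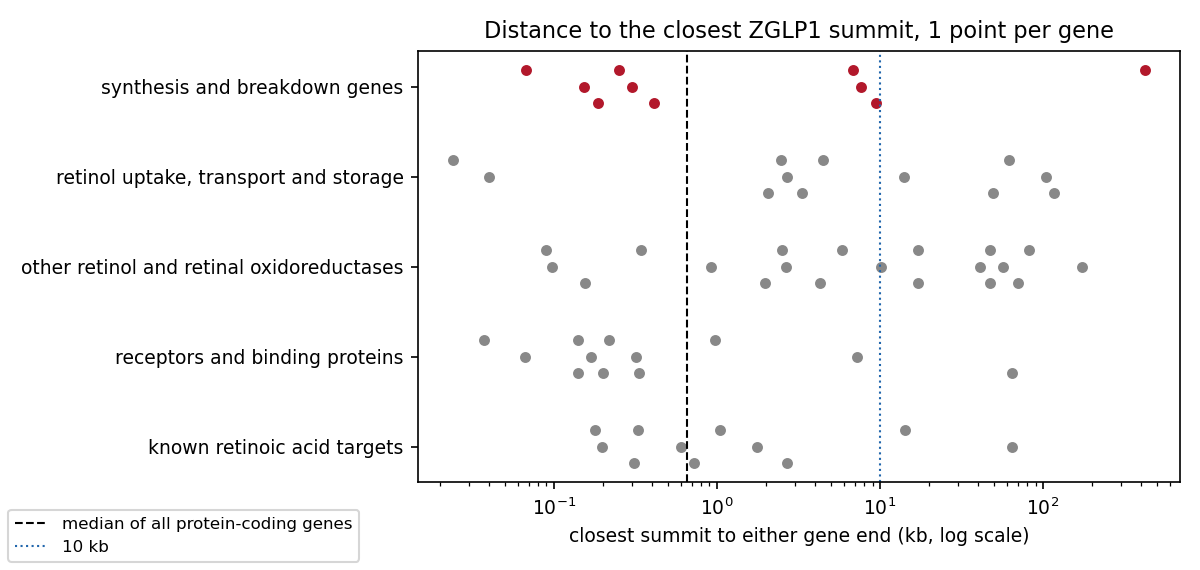
Distance in kb (log scale) from either end of each gene to its closest summit, 1 point per gene, for the 10 synthesis and breakdown genes (red) and 4 other lists (grey, vertical spread for legibility only). The dashed line is the median of all protein-coding genes, 657.5 bases, and the dotted line 10 kb. There are 6 red points left of the dashed line, 3 between the dashed and dotted lines, and Aldh1a1 at 423 kb.

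How the members compared with the background changed between 5 and 10 kb. Within 5 kb, 6 of 10 members had a summit, against 62.4% of all genes and 64.2% of the 53 other retinoid genes. Within 10 kb it was 9 of 10 members, 66.6% and 67.9%. Just outside 10 kb lay a second summit of Cyp26b1, at 10339 bases, one of Cyp26a1, at 10580, and one of Crabp2, at 10677. The 3 genes that entered between those distances were Crabp1, Crabp2 and Cyp26b1, at 6791, 7701 and 9510 bases. With only summits over 1 kb from every protein-coding gene end, 7 of 10 members had one within 10 kb. So did 27 of the 53 other retinoid genes and 35.6% of all genes.

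**Figure D5:**
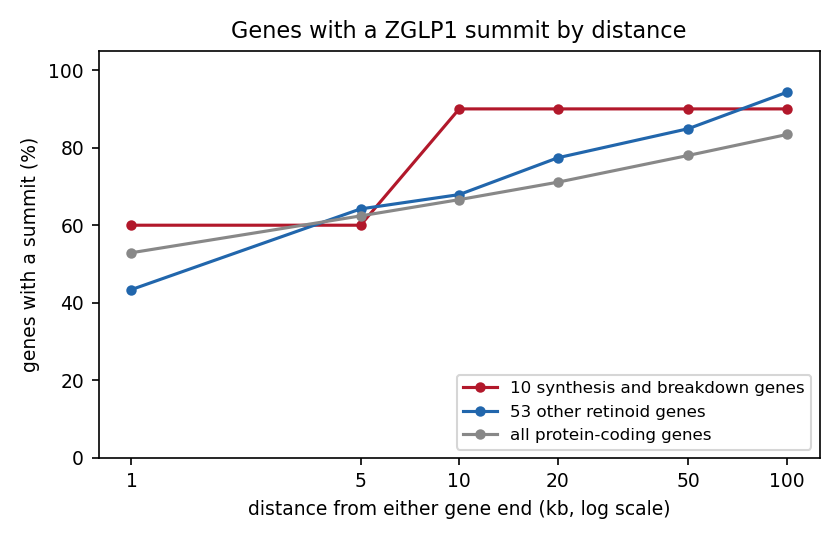
Percent of genes with a summit within a distance (kb, log scale) of either end, for the 10 synthesis and breakdown genes (red), the 53 other retinoid genes (blue) and all protein-coding genes (grey). The red line steps from 6 of 10 genes at 5 kb to 9 of 10 at 10 kb and stays there. Over the same step the grey line goes from 62.4% to 66.6%, and it reaches 83.4% at 100 kb. The blue line goes from 64.2% to 67.9% and reaches 94.3%, above the red line at 5 and at 100 kb.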

How the data were processed

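The authors deposited summit positions of ZGLP1 peaks, in bases on mm10, with no score, p-value or library. The submitters' processing notes list MACS2 2.1.1.20160309 and Bowtie 1.1.2, with HOMER 4.9.1, Trim Galore 0.4.1, SAMtools 1.3, cutadapt 1.9.1, bedtools and Picard 2.1.0. The threshold and any pooling of libraries are not given in the sources used here. Each line holds 1 position as both start and end, so distances may be off by 1 base.

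Gene ends came from the RefSeq table of GRCm38.p6, and starts, strands and 300-base windows from its promoter table. Distances run to the nearer gene end. Counts were compared with the same rule over all 21900 protein-coding genes, as descriptions with no test. The members and lists were chosen with earlier results of these data known. Named were all members, genes nearer to a member's summit, and the 4 closest and 4 farthest genes of each list, of which 2 are not reported here. The DR repeat searches, those of GGGCGG and CCAAT and TATAAA and CACGTG, and other neighbours were chosen after values were seen. So were the stretches dense in summits and those empty of them. Distance and counting code was tested on simulated data. The code ran on pandas 2.3.3, numpy 2.4.6 and SciPy 1.17.1 under Python 3.11.15, with matplotlib 3.10.9 for plots.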

Additional observations from a re-analysis of the deposited data

How the results depend on the processing

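The members with a summit numbered 6 within 1 or 5 kb and 9 within 20, 50 or 100 kb, by nearest gene end, after merging summits under 1 kb apart and after moving positions by 1 base. The count was 7 with summits over 1 kb from every gene end and 5 of 7 by starts alone. Members with a summit inside stayed at 5 in all 4 settings run. The share of protein-coding genes with a summit within 10 kb, 66.6%, became 52.9% within 1 kb, 62.4% within 5, 71.1% within 20, 78.0% within 50 and 83.4% within 100 kb. It was 63.7% by starts, 58.7% by nearest end, 35.6% with summits over 1 kb from every end, 45.6% for all annotated genes, 69.1% for autosomal genes and 71.2% without olfactory, vomeronasal and trace amine receptor genes. The 24 separate summits became 9 within 1 kb, 45 within 50 kb, 57 within 100 kb, 15 by starts and 13 with summits over 1 kb from every end. The 36 other retinoid genes became 23 within 1 kb. Member windows with a receptor hexamer went from 2 to 0 with AGGTCA alone, and those with a GATA hexamer from 3 to 6 with GATA alone. The cause of these changes was not tested. For single members, 32 of 97 values moved by over 1.5 times or to 0, 22 of them down and 10 up. A stricter score threshold was not run, since the list has no score. No paired analysis was possible because summits carry no library name and groups hold 1 library apiece. How far a missing summit reflects shallow sequencing is unknown.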

Other observations

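The members' enzyme families were also counted, by symbol. The 3 Cyp26 genes each had a summit within 10 kb. Of the other 96 cytochrome P450 (Cyp) genes, 27 (28.1%) had one, and 15 (15.6%) had one within 1 kb, against 66.6% and 52.9% of all protein-coding genes. In the large families that act on drugs and foreign compounds, 6 of 48 Cyp2 genes and 0 of 9 Cyp3 genes had a summit within 10 kb, and of the Cyp4 family 10 of 20 did. Among families of steroid synthesis, Cyp11 had 0 of 3, Cyp17 had 0 of 1, and Cyp19 and Cyp21 had 1 of 1 each. Of the rest, Cyp1 had 2 of 3 and Cyp27 had 2 of 2. Cyp20, Cyp24, Cyp39, Cyp46 and Cyp51 had 1 of 1 each, Cyp7 had 0 of 2 and Cyp8 had 0 of 1.

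Of 18 other aldehyde dehydrogenase (Aldh) genes, 13 (72.2%) had a summit within 10 kb, and the same number had one within 1 kb, against the same 66.6% and 52.9% of all protein-coding genes. Aldh1a7, the neighbour of Aldh1a1, had its closest summit at 339182 bases. In the wider Aldh1 family Aldh1b1, Aldh1l1 and Aldh1l2 had one at 359, 164 and 179 bases. The genes named here were chosen after their values were seen. Members of a family that lie side by side share their surroundings, so these shares are not counts of independent genes.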
